A study of Mus musculus with 12 samples.

Results

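The genes described here encode 10 G protein-coupled receptors linked to calcium or cyclic AMP signals in astrocytes. They are the glutamate receptors Grm3 and Grm5, the nucleotide receptors P2ry1 and P2ry2, and the adenosine receptors Adora1 and Adora2b. The others are the adrenergic receptor Adrb1, the endothelin receptor Ednrb, the lysophosphatidic acid receptor Lpar1 and the thrombin receptor F2r. The 10 genes were chosen by name, with earlier results of these data known, and all were found among the 43322 genes of the deposited count table. Poly-A RNA was sequenced from cortical glial cells of wild-type CD1 mice of postnatal days 3 to 5, grown with epidermal growth factor, split once after 7 days and used 3 to 7 days later. The labels call the cells primary cultured astrocytes, and the growth protocol describes a preparation from the cortices of 1 mouse. Before RNA was taken, the cells of 4 libraries had vehicle and those of 4 had 3 µM thapsigargin for 60 min. Those of the other 4 were held for 60 min without external calcium, with EGTA present (called calcium-free medium below). Thapsigargin blocks SERCA, the pump that loads the endoplasmic reticulum with calcium, and EGTA binds calcium outside the cell. The series text calls the 4 samples of a group biological replicates but does not say which culture or mouse each came from. If some share a culture, the p-values measure a spread that is partly technical.

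Receptors of this kind pass a signal to a G protein inside the cell. Grm5, P2ry1, P2ry2, Ednrb, Lpar1 and F2r can act through Gq, which activates phospholipase C, and the inositol trisphosphate it makes releases calcium from the endoplasmic reticulum. Grm3 and Adora1 act mainly through Gi, which lowers cyclic AMP, while Adora2b and Adrb1 act mainly through Gs, which raises it. The store that thapsigargin empties is thus the store from which the Gq-coupled receptors draw.

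Upstream sequences are shown for P2ry2, called higher in both treatments (near the threshold in calcium-free medium). They are also shown for F2r, the most abundant of these genes, which fell with thapsigargin. RefSeq promoters of build GRCm38.p6 matched 9 of the 10 genes by symbol, all but Grm5, and each run below is the 250 bases before a start (for P2ry2, the more upstream of the starts listed), 5′ to 3′. Capitals mark matches, on either strand, to the GC box GGGCGG or the AP-1 site TGANTCA.
P2ry2, chr7:101012054-101012303, minus strand: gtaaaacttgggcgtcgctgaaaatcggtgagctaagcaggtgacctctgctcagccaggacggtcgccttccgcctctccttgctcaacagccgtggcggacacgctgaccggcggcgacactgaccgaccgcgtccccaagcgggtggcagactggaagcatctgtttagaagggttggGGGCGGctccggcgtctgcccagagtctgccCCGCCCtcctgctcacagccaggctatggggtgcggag
F2r, chr13:95618467-95618716, minus strand: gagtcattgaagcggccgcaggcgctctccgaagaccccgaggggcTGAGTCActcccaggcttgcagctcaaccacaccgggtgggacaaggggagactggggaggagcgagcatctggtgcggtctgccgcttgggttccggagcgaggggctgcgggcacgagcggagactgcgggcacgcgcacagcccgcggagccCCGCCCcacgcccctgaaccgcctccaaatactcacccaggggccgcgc
The P2ry2 window is 65.2% G and C and that of F2r 70.8%, against a median of 52.4% over 32851 promoters. The 9 matched genes have 13 such windows, since some have several starts. Those of P2ry2 overlap in part, so the same GC boxes count in each. The GC box was in 10 of the 13 windows (8 of 9 genes), against 32.7% of all windows in the table, and the AP-1 site in 2 of 13, of F2r and Adora1, against 6.75%. The EGR site GCGNGGGCG was in 2 of 13, of Adora1 and Adora2b, against 4.7%. The cyclic AMP response element TGACGTCA (1.55% of all windows) and the TATA box TATAAA (12.4%) were in 0 of the 13. A gene counts among the 8 of 9 if any of its windows holds a match. The shares were not matched for G and C content. EGR and GC box matches can overlap, and these letter matches describe the windows only.

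Library totals ran from 36.19 to 42.57 M counts. Values are CPM, counts scaled to 1 M per normalised library, and levels of different genes are compared as CPM per kb of summed exon length. Markers of astrocytes were abundant: the 16 on a fixed list summed to between 11342.3 and 13270 CPM in control libraries, with Glul, the glutamine synthetase gene, at 573.1 ± 28.5 CPM per kb (SD, n = 4). Markers of other cell types were mixed. The 14 microglia markers summed to 172.7 to 267.7 CPM, the 11 of the oligodendrocyte lineage to 1785.6 to 1909.8, the 12 of neurons to 402.1 to 432.2 and the 12 of vascular cells and fibroblasts to 2491.7 to 3442.7. Of the oligodendrocyte lineage list, 4 markers stayed under 1 CPM in all 12 libraries (Sox10 among them) and 3 were always above 100 CPM (Olig1, Olig2 and Cnp). Of the neuron list 4 were under 1 CPM (Rbfox3 among them) and 2 above 100 (Map2 at 200.5 to 239.6 CPM and Stmn2 at 110.4 to 159.5), and of the vascular and fibroblast list 5 (Cldn5 among them) and 2 (Acta2, and Col1a2 at 283.2 to 813.7 CPM). Replicate 4 of each group stood apart. Its Xist RNA was at 587.5 to 739.8 CPM against at most 0.319 CPM in replicates 1 to 3, and 4 Y-linked genes summed to at most 0.215 CPM against 197.6 to 221.2 CPM, so its cells differed in sex from the rest. The edgeR tests below were also run without replicate 4 and with the replicate number as a block. Overlaps of libraries, the order of levels and correlations between genes used all replicates unless stated.

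The 10 receptors spanned a wide range of levels in untreated cells. F2r, which thrombin activates by cutting its extracellular end, was highest at 137.4 ± 3.41 CPM per kb (SD, n = 4), above 97.4% of the 17092 genes tested. Ednrb, a receptor for all the endothelins that is typical of astrocytes, followed at 84.5 ± 4.08 CPM per kb, and Adora1, which adenosine engages, at 30.4 ± 4.53 CPM per kb. Grm5, the Gq-coupled glutamate receptor of young astrocytes, was next at 9.85 ± 0.525 CPM per kb, then Adrb1 at 7.8 ± 0.513 and P2ry1, an ADP receptor, at 7.78 ± 0.321 CPM per kb. Adora2b stood at 2.66 ± 1.29, P2ry2, a receptor for ATP and UTP, at 2.64 ± 0.252 and Lpar1 at 2.4 ± 0.247 CPM per kb. Grm3, the Gi-coupled glutamate receptor of mature astrocytes, was lowest at 1.34 ± 0.263 CPM per kb, above 30.4% of genes tested. Control ranges of neighbours in this order overlapped between Adrb1 and P2ry1, between Adora2b and P2ry2 and between P2ry2 and Lpar1, and the other 6 neighbours did not overlap. The overlap of Adora2b with P2ry2 came from replicate 4, at 0.75 CPM per kb for Adora2b. In control replicates 1 to 3, Adora2b was at 3.14 to 3.58 (mean 3.29) and P2ry2 at 2.3 to 2.91 CPM per kb. The top 3 kept their places in every one of the 12 libraries. With thapsigargin, Grm5 at 8.02 ± 0.465 CPM per kb overlapped Adrb1 at 8.42 ± 0.389, and P2ry2 at 3.68 ± 0.163 stood above Adora2b at 2.41 ± 1.24 CPM per kb.

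**Figure D1:**
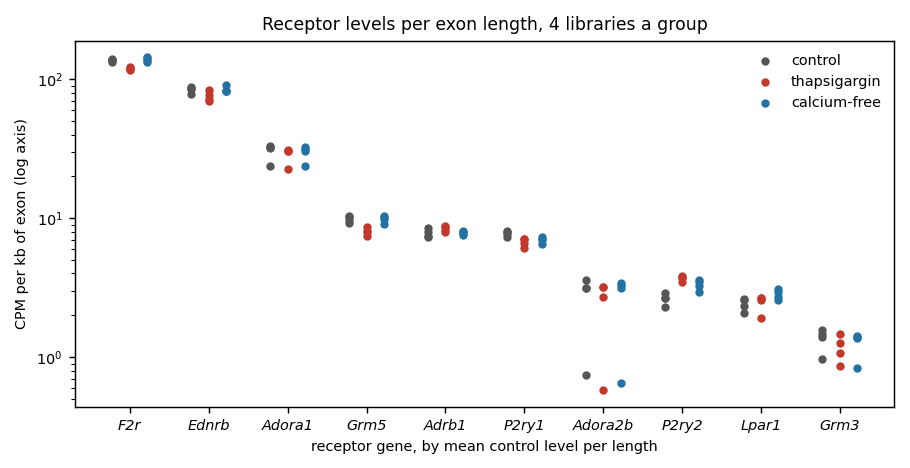
Levels of the 10 receptor genes per exon length (CPM per kb, log axis), ordered by the control mean, with 4 points per group for control, thapsigargin and calcium-free medium. F2r, Ednrb and Adora1 keep the first 3 places in all groups, and the isolated low points of Adora2b and Adora1 belong to replicate 4.

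Thapsigargin lowered 3 of the 10 receptors and raised 1 within 60 min: Grm5, F2r and P2ry1 fell, and P2ry2 rose. Their fold changes ran from 0.814 to 1.39. Over all genes tested with edgeR, 14.8% were called lower and 16.4% higher at an adjusted p under 0.05, 31.2% in all, and the median log2 fold change was -0.15 over the 10 receptors and -0.05 over all genes. Under upper quartile scaling 2601 genes were higher and 3257 lower, against 2798 and 2534 under TMM, and without a filter on low counts 2894 and 1431. Thapsigargin and control libraries did not overlap for these 4 genes, 3 lower and 1 higher, beside 15.1% and 16.7% of all genes. Each of the 4 calls held when any 1 of the 12 libraries was left out. The 6 others did not pass the test, with adjusted p from 0.0602 to 0.891. The test for any difference among the 3 groups called the same 4 receptors, beside 33.3% of genes. With the replicate block it called 7, for which the share over all genes was not computed.

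Grm5 (gene 108071, GRCm39 chromosome 7, 87233212 to 87784271) was at 92.8, 91.7, 86.9 and 82.5 CPM in control replicates 1 to 4 and at 77.1, 73.1, 70.9 and 67.1 CPM with thapsigargin. Every thapsigargin library was below every control library. The log2 fold change was -0.30 ± 0.06 (SE, adjusted p = 0.00141), so the level fell by 18.6%. In calcium-free medium the 4 libraries held 88.2, 91.8, 92.8 and 81.9 CPM, within or just under the control range. That difference was 0.00 ± 0.06 (adjusted p = 0.994), and thapsigargin and calcium-free medium differed from each other by -0.30 ± 0.06 (adjusted p = 0.00174). Grm5 was thus lower under the pump blocker than in either other group. This receptor passes glutamate signals to Gq.

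F2r (gene 14062, chromosome 13, 95738288 to 95754974) moved the same way with a smaller size. Its control libraries held 469, 462.7, 460.2 and 442.4 CPM, and those with thapsigargin 401.4, 408.1, 398.2 and 389.4 CPM. The groups did not overlap, and the 4 ratios to the control of the same number lay between -0.22 and -0.18 on the log2 scale. The fitted change was -0.20 ± 0.03 (adjusted p = 8.04e-04). Calcium-free libraries, at 447.6, 461.9, 475.5 and 479.6 CPM, overlapped the controls (0.02 ± 0.03, adjusted p = 0.859) and were all above those with thapsigargin. The direct difference of thapsigargin from calcium-free medium was -0.22 ± 0.03 (adjusted p = 5.25e-04).

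P2ry1 (gene 18441, chromosome 3, 60910206 to 60916403) was at 30.2, 31, 31.5 and 28.6 CPM in control and at 27.7, 25.9, 27.4 and 23.9 CPM with thapsigargin. Its highest thapsigargin library lay below its lowest control. The change was -0.21 ± 0.06 (adjusted p = 0.0138), and it was not called without a filter on low counts (-0.17, adjusted p = 0.069). In calcium-free medium the values were 27.4, 27.8, 28.6 and 25.5 CPM, each lower than the control of the same number by 0.14 to 0.17 on the log2 scale. That change was -0.15 ± 0.06 (adjusted p = 0.175), called with the replicate block (adjusted p = 0.0124) and without replicate 4 (adjusted p = 0.0336). The treatments were not told apart for P2ry1 (-0.06 ± 0.06, adjusted p = 0.49), unlike for Grm5 and F2r.

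P2ry2 (gene 18442, chromosome 7, 100645775 to 100661260) was the only one of the 10 called higher with thapsigargin. It held 7.06, 8.18, 8.93 and 8.23 CPM in control, 10.6, 11.7, 11.4 and 11.5 CPM with thapsigargin, and 9.04, 9.91, 11 and 10.6 CPM in calcium-free medium. All treated libraries were above all controls, while the ranges of the treatments overlapped each other. The log2 fold change was 0.48 ± 0.08 with thapsigargin (1.39-fold, adjusted p = 8.32e-04) and 0.33 ± 0.08 in calcium-free medium (25.4% higher, adjusted p = 0.0434). The second value was near the threshold: leaving out 1 library at a time gave 0.27 to 0.38, and the call was lost when any library other than control 3, thapsigargin 4 or calcium-free 1 was omitted (adjusted p up to 0.142). It was also lost with upper quartile factors (0.0513), without a filter (0.0551) and with only the 8 libraries compared (0.0992). The treatments differed from each other by 0.15 ± 0.08 (adjusted p = 0.199, 0.0305 with the replicate block). Both treatments share the same controls. P2ry1 and P2ry2, both nucleotide receptors, therefore stood on opposite sides of control in the thapsigargin libraries.

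**Figure D2:**
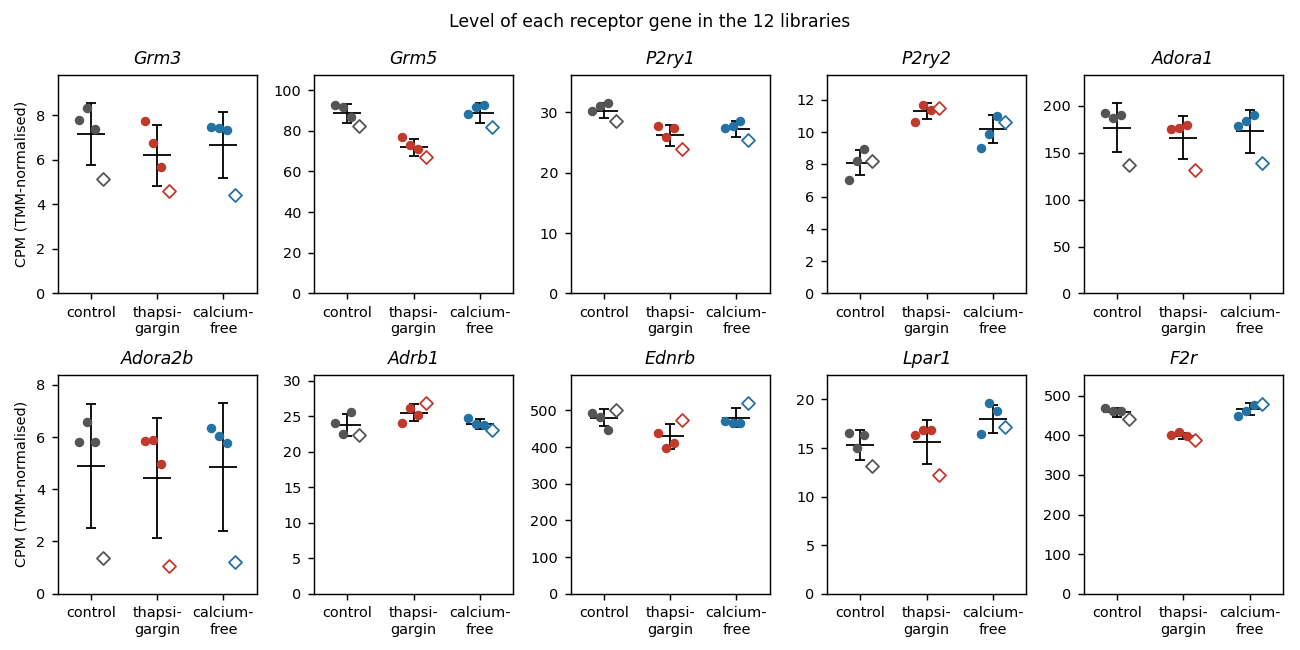
CPM of each receptor gene (linear axes from 0) in the 12 libraries, with filled circles for replicates 1 to 3, open diamonds for replicate 4, and a bar at the mean ± SD (n = 4). Grm5, P2ry1 and F2r with thapsigargin lie below all controls and P2ry2 above them, and replicate 4 is lowest in every group for Adora2b, Adora1 and Grm3.

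Ednrb, Adora1 and Grm3 were lower with thapsigargin only as small shifts that the test without the block did not call. Ednrb (gene 13618, chromosome 14, 104052051 to 104083248) was at 492.1, 482.4, 447.7 and 500.5 CPM in control, at 438.2, 397.3, 410.5 and 473.4 CPM with thapsigargin and at 470.1, 466.1, 465 and 519.4 CPM in calcium-free medium. Control and thapsigargin overlapped, although each thapsigargin library was below the control of its own number. With Grm3, Grm5, P2ry1, Adora1 and F2r, this made 6 of 10 receptors lower in all 4 numbers, beside 34.4% of all genes. Grm3 counts here through 7.76 against 7.78 CPM in replicate 1, and replicates 1 to 3 are not known to be matched by number. For Ednrb, the fitted values with thapsigargin against control were as follows. The change was -0.16 ± 0.06 (adjusted p = 0.0602), called with the replicate block (adjusted p = 3.06e-04), without replicate 4 (adjusted p = 0.00483), with upper quartile factors (-0.19, adjusted p = 0.0169) and without control 3, thapsigargin 4 or calcium-free 4 (adjusted p down to 0.0131). Against calcium-free medium it was also -0.16 ± 0.06 (adjusted p = 0.0677, 4.08e-04 with the block, 0.0119 without replicate 4, 0.0164 without thapsigargin 4 alone, 0.0441 with upper quartile factors and 0.0488 in DESeq2). The deposited values of Ednrb were not whole in 11 of 12 libraries. Gm35197, a long noncoding RNA gene on the opposite strand that overlaps it, held at most 6.5 counts.

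Adora1 (gene 11539, chromosome 1, 134126953 to 134163195) was at 192.6, 187.2, 189.9 and 137.4 CPM in control and at 175.7, 176.8, 179.6 and 131.5 CPM with thapsigargin. Replicates 1 to 3 of thapsigargin lay below replicates 1 to 3 of control, and replicate 4 was far below the rest of both groups. The change was -0.09 ± 0.13 (adjusted p = 0.661), and -0.09 ± 0.03 with the replicate block (adjusted p = 0.01). Without replicate 4 it was not called (-0.06 ± 0.03, adjusted p = 0.0969). Grm3 (gene 108069, chromosome 5, 9535235 to 9776087) was at 7.78, 8.31, 7.4 and 5.13 CPM in control and at 7.76, 6.77, 5.7 and 4.58 CPM with thapsigargin, so the groups overlapped widely. Its change of -0.21 ± 0.21 (adjusted p = 0.508) was called with the block (adjusted p = 0.0309) and not without replicate 4 (-0.18 ± 0.09, adjusted p = 0.143). In calcium-free medium, Adora1 held 139.3 to 190 CPM and Grm3 4.43 to 7.49 CPM, with changes of -0.03 ± 0.13 and -0.10 ± 0.21 (adjusted p = 0.974 and 0.914).

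With the replicate block, 6 of the 10 receptors were called lower with thapsigargin and 1 higher, beside 28.2% lower and 22.9% higher of all genes. Without replicate 4 the counts were 4 lower and 1 higher, beside 21.1% and 24.3%. The receptors called lower in both were Grm5, P2ry1, F2r and Ednrb, and P2ry2 was the one higher.

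Adrb1, Lpar1 and Adora2b did not pass the test with thapsigargin in any of these fits. Adrb1, through which noradrenaline raises cyclic AMP (gene 11554, chromosome 19, 56710549 to 56713582), was at 24.1, 22.5, 25.6 and 22.4 CPM in control and at 24.1, 26.1, 25.1 and 26.8 CPM with thapsigargin. The groups overlapped, and the log2 ratio to the control of the same number was 0.22 and 0.26 in replicates 2 and 4 and 0.00 and -0.03 in replicates 1 and 3. Its change was 0.11 ± 0.05 (adjusted p = 0.149), and 0.01 ± 0.05 in calcium-free medium, where it held 23 to 24.7 CPM (adjusted p = 0.974). Lpar1, a receptor for the lipid lysophosphatidic acid (gene 14745, chromosome 4, 58435252 to 58554601), was at 16.6, 15, 16.3 and 13.2 CPM in control, at 16.3, 16.9, 16.9 and 12.2 CPM with thapsigargin and at 16.4, 19.6, 18.8 and 17.2 CPM in calcium-free medium. Calcium-free replicates 2, 3 and 4 were above every other library, and calcium-free replicate 1 was not. That change was 0.24 ± 0.11 (adjusted p = 0.28), called with the replicate block (adjusted p = 0.0222) and without replicate 4 (0.20 ± 0.06, adjusted p = 0.0462). Thapsigargin and calcium-free medium differed by -0.21 ± 0.11 for Lpar1 (adjusted p = 0.181, 0.0138 with the block, 0.241 without replicate 4).

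In calcium-free medium, then, P2ry2 was the 1 receptor called higher and 0 of the 10 were called lower with edgeR, beside 3.79% and 1.56% of all genes, 5.34% in all. DESeq2 also called 1 and 0, beside 8.77% of the genes it tested in either direction. At an unadjusted p under 0.05 there were 2 higher and 1 lower, for which the share over all genes was not computed. Calcium-free libraries did not overlap the controls for 1 receptor, P2ry2 (higher), and 0 were lower without overlap, beside 6.05% and 4.42% of genes. With the replicate block, 2 were higher (P2ry2 and Lpar1) and 1 lower (P2ry1), beside 10.4% and 7.00% of genes, and without replicate 4 the same counts stood beside 10.5% and 5.14%. The median change over the 10 was 0.00, and -0.01 over all genes. Under TMM scaling 70.9% of all called genes were higher, and 58.3% under upper quartile scaling. Between the treatments, 2 receptors were lower with thapsigargin, Grm5 and F2r, and 0 higher with edgeR, beside 13.3% and 14.6% of genes, 27.8% in all. DESeq2 called 3 lower (Ednrb too) and 0 higher, beside 29% of the genes it tested in either direction. Libraries did not overlap for these 2, beside 13.4% of genes lower and 14.9% higher. The block called 4 lower and 1 higher, beside 27.0% and 22.4%, and without replicate 4 there were 3 lower and 0 higher, beside 19.4% and 21.6%.

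**Figure D3:**
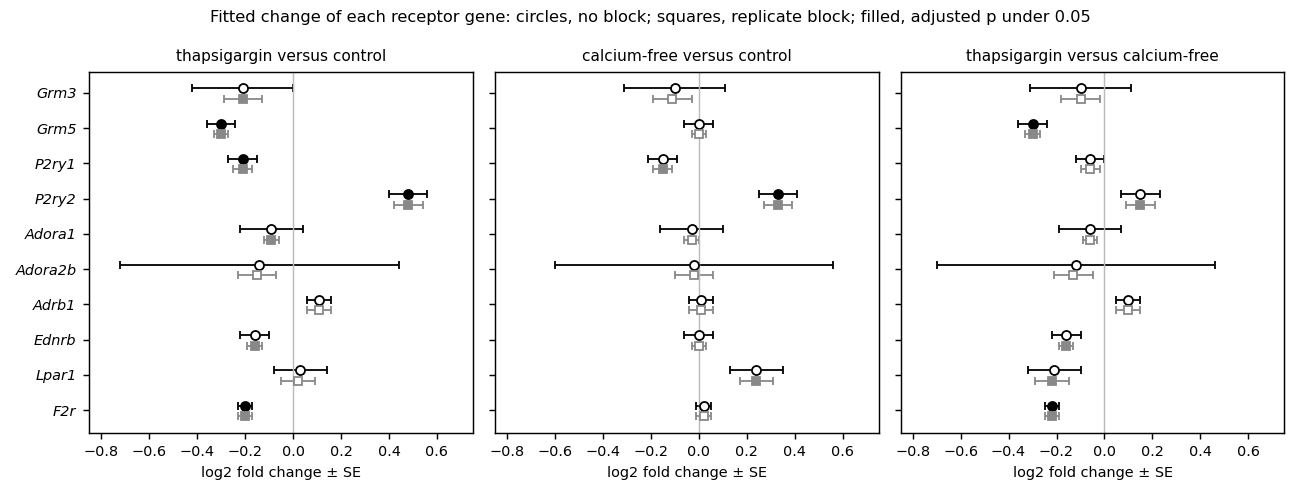
Log2 fold change ± SE of each receptor gene in the 3 comparisons, with circles for the fit without a block, grey squares for the fit with the replicate block, and filled symbols at an adjusted p under 0.05. Grm5 and F2r are filled on the negative side for thapsigargin against both other groups, and Adora2b has the widest error without the block, at -0.14 ± 0.58 for thapsigargin.

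Adora2b, which adenosine engages at higher concentrations than Adora1, differed more between replicates than between treatments. It is a Gs-coupled receptor (gene 11541, chromosome 11, 62139810 to 62157278). Its values were 5.82, 6.59, 5.8 and 1.38 CPM in control, 5.86, 5.88, 4.96 and 1.07 CPM with thapsigargin, and 6.35, 6.04, 5.79 and 1.2 CPM in calcium-free medium. Replicate 4 was the low library of each group, from 58, 47 and 50 counts, while the other 9 libraries held at least 213 counts. Its log2 ratio to the mean of replicates 1 to 3 was -2.13 in control, -2.38 with thapsigargin and -2.33 in calcium-free medium. Replicate 4 was at least 4-fold lower in all 3 groups for 0.357% of genes tested, and at least 2-fold lower for 1.81%. The change with thapsigargin was -0.14 ± 0.58 (adjusted p = 0.891), -0.15 ± 0.08 with the block (adjusted p = 0.128) and -0.09 ± 0.09 without replicate 4 (adjusted p = 0.47). In calcium-free medium the changes were -0.02 ± 0.58, -0.02 ± 0.08 and 0.00 ± 0.09 (adjusted p from 0.914 to 0.999).

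Replicate 4 was also the lowest of its group in all 3 groups for Grm3, Grm5, P2ry1 and Adora1, which makes 5 of the 10 receptors, beside 22.4% of all genes. Log2 ratios to replicates 1 to 3 were -0.74 to -0.56 for Grm3 and -0.47 to -0.40 for Adora1, and smaller for Grm5 (-0.15 to -0.13) and P2ry1 (-0.17 to -0.11). Ednrb was the only one highest in replicate 4 in all groups, at 0.08 to 0.19, a position held by 25.7% of genes. P2ry2, Adrb1, Lpar1 and F2r had no such position. Other features of replicate 4 moved with these levels. Its proliferation markers summed to 2346.5 to 2571.5 CPM against 1831.5 to 2008.8 CPM in the other libraries, its astrocyte markers to 10101 to 11718.9 CPM against 10924.5 to 13660.2, its vascular and fibroblast markers to 2128.3 to 2766.5 CPM against 2848 to 3605.6, and its microglia markers to 144.1 to 172.7 CPM against 195.5 to 267.7. Its oligodendrocyte lineage markers were higher, at 1909.8 to 2091.5 CPM against 1641.4 to 1843.2, and its neuron markers stood at 356.6 to 420.3 CPM against 380.2 to 456. Their part in the receptor levels was not tested. Fewer cells of a type and less RNA per cell cannot be told apart in bulk samples.

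**Figure D4:**
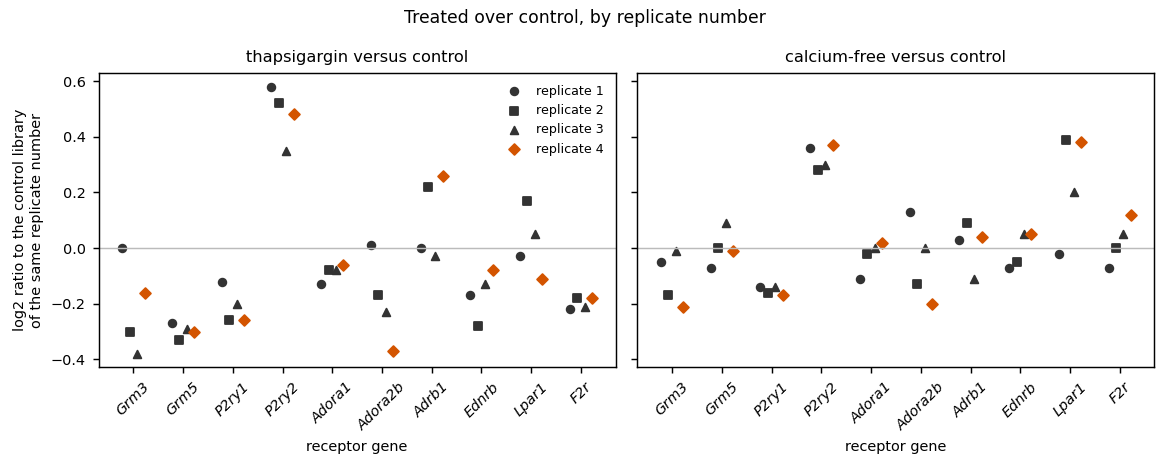
Log2 ratio of each treated library to the control library of the same replicate number, for the 10 receptor genes, with replicate 4 as orange diamonds. Grm5 and F2r are below 0 and P2ry2 above 0 in all 4 numbers with thapsigargin, while Adora2b lies between -0.37 and 0.01 there, with replicate 4 at -0.37.

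Several cell type markers also changed with thapsigargin, and their counts below stand beside 14.8% lower and 16.4% higher of all genes (28.2% and 22.9% with the block). Of 16 astrocyte markers 4 were lower and 1 higher, with a median log2 fold change of -0.22 against -0.05 over all genes, and their sum was 10101 to 11981.8 CPM against 11342.3 to 13270 CPM in control. Fgfr3 fell by 0.33 ± 0.06 on the log2 scale and Slc1a3, the glutamate transporter, by 0.27 ± 0.05. With the block 11 of the 16 were lower, and also without replicate 4. Of 14 microglia markers 3 were lower (12 with the block, 9 without replicate 4), among them Cd68 at -0.45 ± 0.14, and their sum was 144.1 to 204.4 CPM. The Cd68 call was lost without control 1, 2 or 3 or thapsigargin 4 (adjusted p up to 0.0784). Vascular and fibroblast markers had 1 of 9 tested lower, Acta2 at -0.21 ± 0.05, and 3 with the block. Neuron markers had 1 lower and 1 higher of 9 (Stmn2 and Gad1; 3 and 1 with the block), oligodendrocyte lineage markers 1 and 1 of 8 (Cnp and Olig2; 4 and 1), and proliferation markers 1 and 0 of 10 (Ccnb1; 5 and 0). The part of these marker values in the falls of Grm5, F2r and P2ry1 was not tested. In calcium-free medium 0 astrocyte and 0 microglia markers were called with edgeR or DESeq2, beside 3.79% higher and 1.56% lower of all genes in edgeR. DESeq2 called 8.77% of the genes it tested in either direction. The unadjusted p was under 0.05 in 1 and 0, for which the share over all genes was not computed. The block called 1 astrocyte marker higher and 5 microglia markers lower, beside 10.4% and 7.00% of genes. Olig2 rose by 0.48 ± 0.05 there.

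Among relatives of the receptors in the same families, 23 of 31 on the list passed the filter on low counts, and 1 rose and 1 fell with thapsigargin. For this and the 5 lists that follow, the shares over all genes in this comparison were 16.4% higher and 14.8% lower (22.9% and 28.2% with the block, 24.3% and 21.1% without replicate 4), with a median of -0.05. For calcium-free medium against control they were 3.79% higher and 1.56% lower (10.4% and 7.00% with the block, 10.5% and 5.14% without replicate 4). DESeq2 called 29.9% of the genes it tested in either direction with thapsigargin and 8.77% in calcium-free medium. Shares over all genes at an unadjusted p under 0.05 were not computed. Lpar6, a receptor for the same lipid as Lpar1, rose from 11.7 ± 0.702 to 15.7 ± 0.473 CPM (0.43 ± 0.09, adjusted p = 0.0037). P2ry12, the ADP receptor of microglia, fell from 4.45 ± 0.658 to 3.27 ± 0.502 CPM (-0.45 ± 0.15, adjusted p = 0.043), a call lost without control 1, 2 or 3, thapsigargin 2, 3 or 4, or any of calcium-free 2 and 3 (adjusted p up to 0.116), and with RLE factors (0.055), no filter (0.0907) or only 8 libraries (0.0565). The list's median was -0.15, and with the block 1 was higher and 4 lower. F2rl1, a protease-activated relative of F2r, had the highest level at 8.84 ± 0.9 CPM per kb and did not pass the test (-0.15 ± 0.08, adjusted p = 0.199, 0.00697 with the block). In calcium-free medium edgeR called 0 of the 23 (DESeq2 1 lower, the block 1 higher and 1 lower, and as many at an unadjusted p under 0.05).

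Other receptors linked to calcium in astrocytes had 3 of 24 tested higher and 0 lower with thapsigargin in edgeR, and a median of -0.04. Counts were 4 and 0 in DESeq2, and 5 and 2 at an unadjusted p under 0.05. The block gave 7 and 2, and leaving out replicate 4 gave 7 and 1. Hrh1, the Gq-coupled histamine receptor, rose from 2.73 ± 0.294 to 5.28 ± 0.314 CPM (0.95 ± 0.12, adjusted p = 1.05e-04), and to 4 ± 0.619 CPM in calcium-free medium (0.55 ± 0.12, adjusted p = 0.0265). The second call was lost without control 1, 2 or 3 or calcium-free 2 or 3 (adjusted p up to 0.0914), or with only 8 libraries (0.0819). Bdkrb2, the bradykinin receptor, rose from 44.5 ± 7.61 to 63.2 ± 8.15 CPM (0.51 ± 0.15, adjusted p = 0.02, up to 0.0578 without thapsigargin 1, 2 or 3). S1pr1, a sphingosine phosphate receptor, had the highest level of this list at 52.8 ± 3.28 CPM per kb and rose by 0.19 ± 0.06 (adjusted p = 0.0231), a call lost without control 4, thapsigargin 1 or thapsigargin 2 (up to 0.0705), or with upper quartile factors (0.0686). Hrh1, like P2ry2, was thus called higher in both treatments.

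Genes that make, break down or take up the ligands fell in 6 of 24 cases with thapsigargin and rose in 0 by edgeR, beside 14.8% and 16.4% of all genes. DESeq2 gave the same counts. They were 9 and 0 at an unadjusted p under 0.05, 11 and 1 with the block, and 10 and 1 without replicate 4. The list's median was -0.15. Adk, the kinase that clears adenosine, fell from 92.4 ± 1.85 to 73.8 ± 0.844 CPM (-0.32 ± 0.03, adjusted p = 4.87e-06) and stood at 92.5 ± 0.803 CPM in calcium-free medium. Slc1a3, which takes up glutamate, went from 2637.7 ± 82.9 to 2181 ± 88.9 CPM (adjusted p = 9.34e-04). The other 4 called, named after their values were seen, changed by -0.29 to -0.19. They were Enpp2, which makes lysophosphatidic acid, Slc29a1, a nucleoside transporter, Serpine2, a thrombin inhibitor, and Maoa, which breaks down monoamines. In calcium-free medium 0 of the 24 were called by edgeR or DESeq2, 0 had an unadjusted p under 0.05, and with the block 1 was higher and 1 lower.

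Downstream, 6 of 17 G protein genes fell with thapsigargin and 1 rose (7 and 1 with the block), beside 14.8% and 16.4% of all genes (28.2% and 22.9%). The list's median was -0.09. Gna13 rose from 166.9 ± 2.72 to 193.2 ± 5.9 CPM (0.21 ± 0.03, adjusted p = 5.97e-04), and its relative Gna12 fell by 0.20 ± 0.03 (adjusted p = 7.32e-04). Gnai2, an inhibitory subunit and the most abundant of the list per length, fell by 0.17 ± 0.04 (adjusted p = 0.00432), and Gna11, a Gq-class subunit named after its value was seen, by 0.18 ± 0.03. In calcium-free medium Gnai3 rose by 0.17 ± 0.04 (adjusted p = 0.0208), a call lost without control 1, 2 or 3 or calcium-free 2 or 3 (up to 0.0792).

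Among 28 effectors 4 rose and 4 fell with thapsigargin (4 and 7 with the block, 5 and 5 without replicate 4), a share near the 31.2% of all genes called in either direction. The median was 0.00. Plcb4, a phospholipase C that Gq activates, rose from 18.1 ± 0.857 to 23.7 ± 0.901 CPM (0.39 ± 0.05, adjusted p = 1.04e-04). Adcy3, an adenylyl cyclase, fell from 23.8 ± 1.57 to 16.8 ± 1.31 CPM (-0.50 ± 0.07, adjusted p = 1.99e-04), and Prkaca, a catalytic subunit of protein kinase A, by 0.25 ± 0.04 (adjusted p = 5.47e-04). Calcium-free medium raised 2 of the 28 and lowered 0, beside 3.79% and 1.56% of all genes. DESeq2 called 4 higher, and the block 7 higher and 2 lower (10.4% and 7.00% of genes). Without replicate 4 there were 4 and 0 (10.5% and 5.14%). Adcy9 rose by 0.43 ± 0.09 (adjusted p = 0.0161, up to 0.0584 without control 1 or calcium-free 2 or 3, and 0.053 with only 8 libraries). It was also called higher with thapsigargin (0.26 ± 0.09, adjusted p = 0.0365). That call was lost without control 1 or 4 or thapsigargin 1, 2 or 3 (up to 0.0963), or with upper quartile factors (0.0623). The treatments were not told apart for Adcy9 (-0.17 ± 0.09, adjusted p = 0.185, 0.0123 with the block). Itpr1, a calcium release channel of the endoplasmic reticulum, rose from 59.1 ± 4.31 to 76.7 ± 11.2 CPM (0.37 ± 0.09, adjusted p = 0.0367), called when control 4, thapsigargin 4 or calcium-free 1 was left out and lost without any other library (up to 0.121) or without replicate 4 of all groups (0.0587), or with only 8 libraries (0.0895).

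Genes that end receptor signals had 5 of 23 higher and 2 lower with thapsigargin (7 and 5 with the block, 8 and 4 without replicate 4), also near the 31.2% of all genes. The median was 0.00. Rgs16 and Rgs2, which speed the shut-off of Gi and Gq proteins, were the clearest. Rgs16 went from 55.4 ± 7.47 to 194 ± 25.9 CPM (1.81 ± 0.13, adjusted p = 1.88e-06) and to 89.2 ± 13.3 CPM in calcium-free medium (0.69 ± 0.13, adjusted p = 0.0113). Rgs2 rose from 21.4 ± 0.877 to 35.7 ± 1.23 CPM with thapsigargin (0.74 ± 0.05, adjusted p = 9.75e-07) and was at 19.1 ± 1.04 CPM in calcium-free medium (-0.16 ± 0.05, adjusted p = 0.0948, 0.0175 with the block). Grk2, the receptor kinase with the highest level of the list at 30.2 ± 0.645 CPM per kb, fell by 0.12 ± 0.04 (adjusted p = 0.0181, 0.0538 without thapsigargin 1 and 0.204 with no filter). In calcium-free medium 1 of the 23 was higher, Rgs16, beside 3.79% of all genes. With the block 4 were higher and 2 lower (10.4% and 7.00% of genes), and likewise without replicate 4 (10.5% and 5.14%).

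For the receptors called in any comparison, the genes most alike across the 12 libraries were picked by Pearson correlation of log2 CPM among 11613 named genes whose log2 CPM averaged 2 or more. These libraries share treatments and replicate numbers, so r describes the pattern only. Grm5 was most like Emc2 (r = 0.988), Pdha1 (0.988) and Gsta4 (0.985), and F2r most like Thbs2 (0.985), Chst2 (0.983) and Stmn2 (0.98). P2ry1 was most like Arf3 (0.966), Sfxn3 (0.953) and Fdxr (0.95), and P2ry2 most like Lrrc20 (0.967), Gli3 (0.962) and Shroom3 (0.96).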

How the data were processed

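The submitters' processing notes list STAR 2.7.2b, featureCounts 1.6.4, cutadapt 1.17 and bcl2fastq 2.20.0.422, and the build GRCm39. The kit was stranded, per the labels' protocols; the strand setting of the counting is not given in the sources used here. Gene-level expected counts were deposited, 14.2% to 15.9% of them not whole in a library, and they were rounded. With the strand setting unknown, antisense overlaps are uncertain; the 5 genes overlapping a receptor held at most 8 counts in any library. No molecular identifiers are described.

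Differences were tested by edgeR 4.0.16 (quasi-likelihood, R 4.3.3, robust, TMM, default filter at a minimum count of 10, 17092 genes, 12 libraries sharing 1 spread), with Benjamini-Hochberg adjustment over all genes and calls under 0.05. The fit was also run on simulated counts drawn independently for each library. Those lack the shared deviation of replicate 4, so that run does not measure the error rate of the calls here. SEs were derived from the F statistic. CPM and exon lengths gave CPM per kb. Receptors and lists were chosen with earlier results of these data known. Besides the receptors, the text names for each list the 2 called genes with the smallest p against control in each treatment, the most abundant gene per length, and 3 genes most alike per called receptor. Across genes, libraries sharing a replicate number deviated together from their group means (r from 0.159 to 0.836, all above 0.1), so the number was taken as pairing and fitted as a block. Replicate 4 gave 0.813 to 0.836. Replicates 1 to 3 gave 0.159 to 0.392 within a number, no more than the 0.239 to 0.413 between numbers. The number thus pairs only replicate 4, and ratios by number for replicates 1 to 3 are not known to be matched. Replicate libraries differed beyond sampling noise (chi-square per degree of freedom 1.66 to 46). Pairs with replicate 4 gave 38 to 46. Pairs among replicates 1 to 3 gave 2.2 to 3.73 in control, 1.66 to 5.06 with thapsigargin and 3.86 to 19 in calcium-free medium. Labels do not say whether replicates 1 to 3 share a culture, so p-values without replicate 4 may rest on a partly technical spread. Alternatives were other size factors, DESeq2 1.42.0, other filters, 8 libraries only, the block, and leaving libraries out.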

Additional observations from a re-analysis of the deposited data

Results flagged for a closer look

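In 30 groups of 4 values (10 receptors in 3 groups), 7 held a library whose gap to the nearest other value, as a share of the group's range, exceeded Dixon's critical value for 4 samples, and every one of these was replicate 4. Chance flags about 1 in 20 groups, but these 30 are not independent, since the 3 groups' replicate 4 libraries deviated together and the 10 genes come from the same libraries. Adora2b in replicate 4 was at 1.38 CPM in control and at 1.2 CPM in calcium-free medium. For Adora1, replicate 4 held 137.4 CPM of control RNA and 131.5 CPM after thapsigargin. Grm3 stood at 4.43 CPM in calcium-free replicate 4, and Lpar1 at 12.2 CPM in thapsigargin replicate 4. Ednrb was the one that stood apart on the high side, at 519.4 CPM in calcium-free replicate 4.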

How the results depend on the processing

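With thapsigargin against control, Grm5, F2r and P2ry2 kept direction and call under every alternative, and P2ry1 under all but the omitted filter. With the replicate block, 6 receptors were lower and 8741 genes were called in all, against 5332 without it. In calcium-free medium the number of receptors called higher was 0 with upper quartile factors, with no filter and with the 8 libraries of the groups compared, and 2 with the block and without replicate 4, where 1 was lower. All calls there numbered 913 in edgeR, 1483 with DESeq2, 498 with 8 libraries, 2970 with the block and 2656 without replicate 4. Between treatments the block called 1 receptor higher, 4 lower and 8441 genes, against 4760. For any difference among groups the block called 7 receptors, without a share over all genes to set beside them. CPM of raw library totals put F2r at 413.3 with thapsigargin. Leaving out 1 library at a time gave 1 receptor higher and 3 to 4 lower with thapsigargin (4339 to 5753 genes), 0 to 1 higher and 0 lower in calcium-free medium (374 to 1443 genes), 0 higher and 2 to 3 lower between treatments (3623 to 5199 genes), and 3 to 5 for any difference. The cause was not tested.

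Signs changed in 42 of 1220 refits of named genes, at adjusted p from 0.8 to 1. In calcium-free medium, upper quartile factors gave -0.02 for Grm5 and Adrb1 and -0.01 for F2r, and Ednrb was at 0.01 with RLE factors and DESeq2 and at 0 with no filter and with 8 libraries. Grm5 was at 0 with the stricter filter, and F2r and Adora2b at 0 without replicate 4. With 1 library left out, ranges that crossed 0 there were -0.13 to 0.06 for Adora1, -0.33 to 0.3 for Adora2b, -0.01 to 0.05 for Adrb1, -0.05 to 0.02 for Ednrb, -0.23 to 0.05 for Grm3 and -0.03 to 0.04 for Grm5. With thapsigargin they were -0.2 to 0 for Adora1, -0.45 to 0.19 for Adora2b and -0.04 to 0.13 for Lpar1, and between treatments -0.14 to 0.04 for Adora1, -0.44 to 0.21 for Adora2b and -0.24 to 0.02 for Grm3. Adora2b rests on 47 to 58 counts in replicate 4, which limits its precision.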
